A study of Oryza sativa with 60 samples.

Results

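The starch synthase genes of rice were followed through development. The family was taken as a set of 10 gene identifiers, 2 of the granule-bound class (Os06g0133000 and Os07g0412100) and 8 of the soluble class, out of 38978 genes in the expression table. All 10 were present, and all 10 were at 1 TPM (a transcript level corrected for gene length and sequencing depth) or more in at least 2 libraries, the filter on low values. The identifiers were not paired with gene symbols in the files, and the supplied RefSeq gene table, of another assembly, matched none of the 10. The class of each gene therefore rests on general knowledge of rice loci, and the genes are called by identifier.

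Starch synthases add glucose from ADP-glucose to the growing ends of glucan chains inside plastids. The granule-bound class is known for the synthesis of amylose, the largely unbranched polymer, within the starch granule, and the soluble class for lengthening the chains of amylopectin, the branched polymer. Storage starch fills the cereal endosperm and feeds the germinating seedling, whereas starch of leaves is built up by day and broken down at night. In rice, separate members of the family are known to serve the endosperm and the leaf.

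Plants were of the cultivar Nipponbare, with no transgene or mutation named. The 12 groups were endosperm, embryo and flag leaf at 10 days after anthesis (DAA), panicle, straw and flag leaf at heading, seedlings at 2 weeks and 8 days, and the radicle (embryonic root) and plumule (embryonic shoot) of germinating seeds, each kept in light or in dark. Of 60 samples, 24 were input and 36 were bisulfite-treated libraries for pseudouridine (Ψ), with 2 input and 3 treated per group. TPM values were given for 2 libraries per group. The labels do not say whether these came from separate plants, so p-values measure only the spread between these libraries, which may be technical.

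The expression libraries held between 2109737 and 9006629 read equivalents, estimated from the smallest step of the values. In the pairs of endosperm, plumule light and plumule dark no difference beyond sampling noise was detected between the 2 libraries (chi-square over genes, p = 0.0703, 0.612 and 0.316), and each of these pairs was counted as 1 sample. The embryo libraries, at a chi-square p of 0.0438, were kept apart. Radicle light replicate 1 stood apart from its partner. Its summed level of 10 endosperm storage protein genes was 51037 TPM, against 10.00 TPM in replicate 2, 59.4 and 267 TPM in the radicle dark libraries, and 70699 and 73993 TPM in endosperm. It also held 2384 TPM of 5 root genes, and its correlation over genes was 0.909 and 0.913 with the radicle dark libraries and 0.896 and 0.897 with endosperm (Pearson's r of log2(TPM + 1)). It was left out of all group means and tests, so radicle light is a single library assumed to vary like the other groups. The labelled tissues otherwise carried their markers: the root genes summed to between 4753 and 5399 TPM in the other 3 radicle libraries and at most 306 TPM in the other tissues, and 7 photosynthesis genes to between 11752 and 15430 TPM in flag leaf. The embryo libraries also held storage protein transcripts (12633 and 12730 TPM), and the endosperm libraries held transcripts of 4 oil body and late embryogenesis genes (6729 and 7017 TPM, against 28133 and 28250 TPM in embryo). In whole organs, fewer cells of a type and less RNA per cell cannot be told apart.

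Of 9126 Ψ sites in the series, 9 lay within the 10 genes. Their surroundings are shown first. The site table gives 7 bases for each, 5′ to 3′ in the direction and sense of the transcript, with the base of the site as a capital T. The sites of Os06g0133000 were as follows, in order along the gene.
Os06g0133000 site at 1766462: gttTtgt
Os06g0133000 site at 1766519: tcaTctg
Os06g0133000 site at 1769625: cggTggg
Os06g0133000 site at 1769832: aggTggc
Os06g0133000 site at 1770363: agaTcgc
The other 4 sites lay in a gene each.
Os07g0412100 site at 12917758: ggcTctg
Os06g0160700 site at 3079334: agcTgta
Os06g0229800 site at 6750587: ggaTgta
Os04g0624600 site at 31752241: ggtTcca
These sites differed in their neighbours. The T of the site stood between A and C at 2 sites and between 2 Gs at 2 sites. These contexts made up 12.8% and 13.8% of all sites of the series. At 1 site, gttTtgt, it stood between 2 other Ts, a context of 1.79% of all sites. The fraction of that site was 0 in every tissue with a value. The remaining 5 genes (Os02g0744700, Os10g0437600, Os08g0191433, Os01g0720600 and Os05g0533600) spanned no site.

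By the group of their highest mean alone, the members fell into genes of the filling grain and genes of green or young tissue. In 4 genes, Os06g0133000, Os06g0229800, Os06g0160700 and Os08g0191433, the highest level was in endosperm and the next in embryo. Os07g0412100 was highest in flag leaf at 10 DAA, Os05g0533600 in flag leaf at heading, Os02g0744700 in light-grown plumule, and Os10g0437600, Os04g0624600 and Os01g0720600 in 2-week seedlings. The division did not hold for every gene further down the order. Os10g0437600 had its next highest mean in endosperm (27.5 TPM), above light-grown plumule (23.5 TPM). Os05g0533600 averaged 20.4 TPM in endosperm, below flag leaf at heading (35.5 TPM) and panicle (27.4 TPM) and above the other groups. These orders are descriptions, with no test, and neighbours in an order are called apart only where their libraries did not overlap. How often neighbours are apart over all genes was not counted, so the counts of such pairs are no result about the members.

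**Figure D1:**
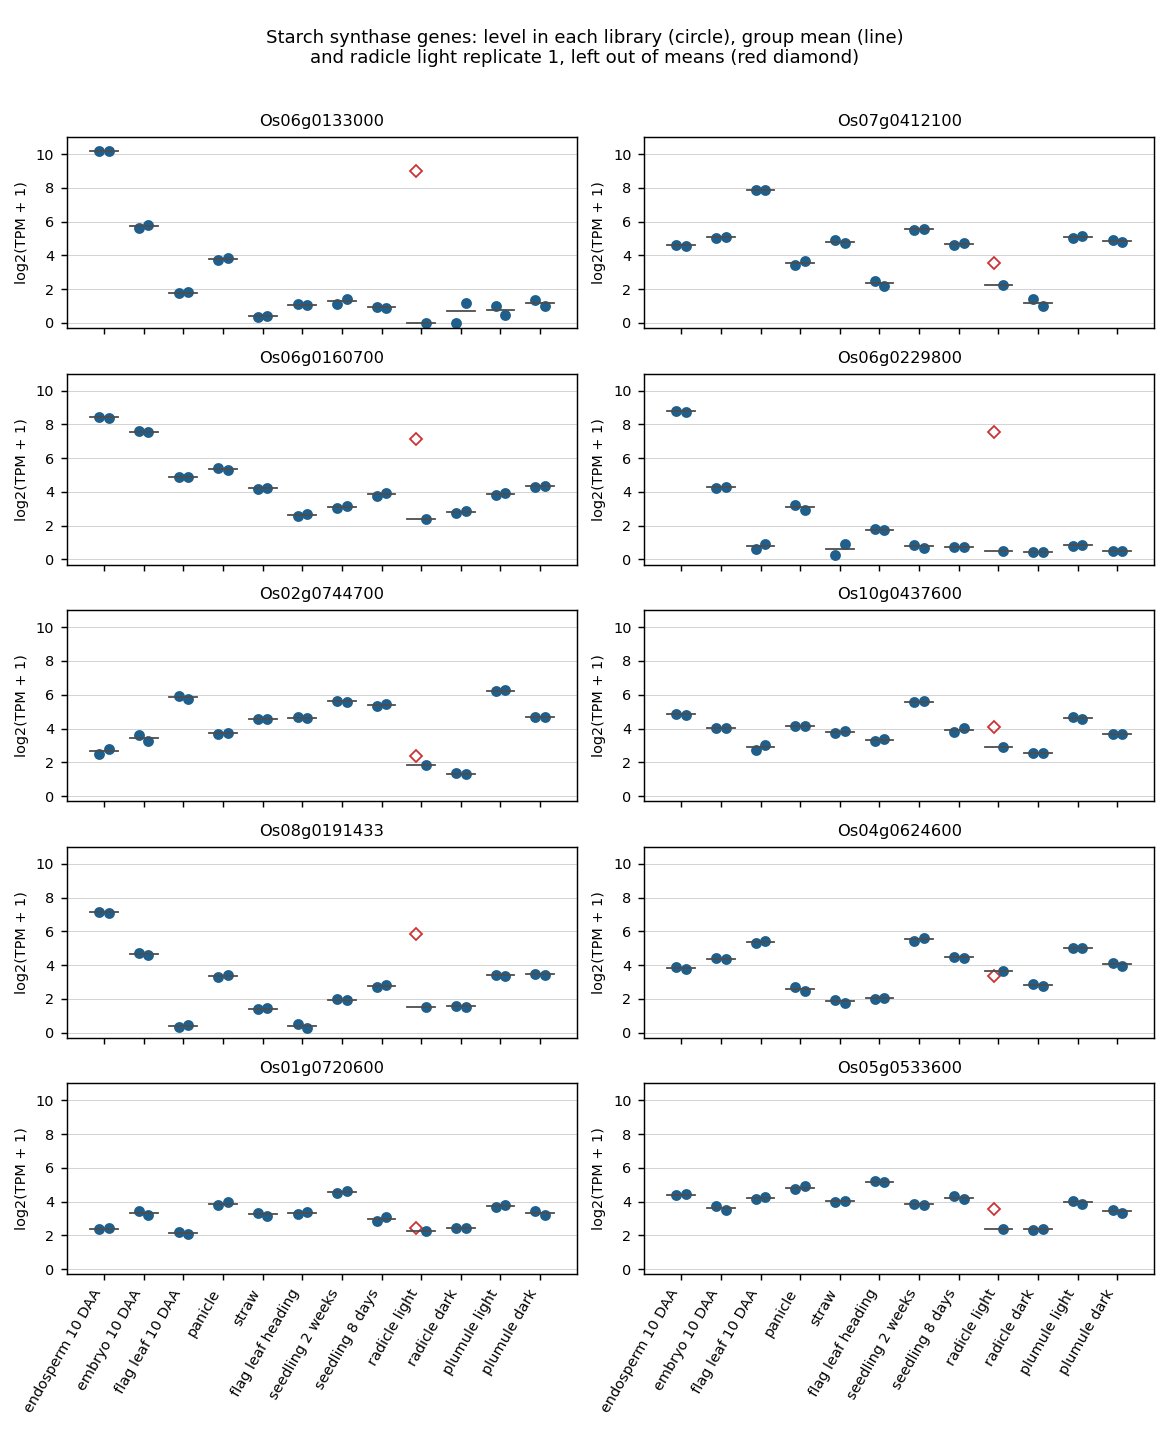
Level of each starch synthase gene on the log2(TPM + 1) scale in both libraries (circles) of the 12 groups, with the group mean as a line. The red diamond is radicle light replicate 1, left out of the means, which lay at 40.2% to 44.4% of the endosperm mean in the 4 genes that are highest there. Os06g0133000 had 1159 and 1152 TPM in endosperm and was at 2.53 TPM or less in the circles of all groups but endosperm, embryo and panicle.

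Os06g0133000, on chromosome 6 from 1765622 to 1770653 on the forward strand (IRGSP-1.0), reached the highest level of any member, in endosperm. It is of the granule-bound class. It had 1159 and 1152 TPM in endosperm, 48.3 and 54.6 TPM in embryo, and 12.4 and 13.5 TPM in panicle. Endosperm was 22.5 times embryo, and the gene ranked 91 of 29558 genes above 0 in endosperm by mean TPM. Flag leaf at 10 DAA had 2.41 and 2.53 TPM. In every other library but radicle light replicate 1 it stayed at 1.69 TPM or less, and 5 of the 11 neighbouring pairs of groups in the order overlapped. It was at 0 reads in radicle light replicate 2, which allows up to 0.679 TPM, and in radicle dark replicate 1, which allows up to 0.385 TPM. The other radicle dark library had 1.25 TPM, and it was also the one with more storage protein transcript (267 TPM, against 59.4 TPM in replicate 1). The part of that transcript in the value was not tested.

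Os06g0229800, a soluble-class gene on chromosome 6 from 6748398 to 6753302 on the forward strand, had the same order at its upper end. Its levels were 450 and 429 TPM in endosperm, 17.5 and 19.0 TPM in embryo, and 8.44 and 6.58 TPM in panicle. Endosperm was 24 times embryo. Flag leaf at heading had 2.48 and 2.30 TPM, and all other groups averaged under 1 TPM. Its lowest level was in radicle dark, with 0.352 and 0.334 TPM.

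Os06g0160700, a soluble-class gene on chromosome 6 from 3079296 to 3086808 on the reverse strand, was less confined to the grain. It had 352 and 332 TPM in endosperm and 193 and 185 TPM in embryo, so that endosperm was 1.81 times embryo. Panicle had 41.3 and 39.2 TPM, flag leaf at 10 DAA 28.4 and 28.7 TPM, and dark-grown plumule 18.9 and 19.7 TPM. It was the member with the most transcript in embryo, and 10 of its 11 neighbouring pairs of groups were apart.

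Os08g0191433, a soluble-class gene on chromosome 8 from 5353697 to 5363276 on the forward strand, had 141 and 137 TPM in endosperm and 24.8 and 23.6 TPM in embryo. The 2 plumule groups and panicle lay between 8.93 and 10.1 TPM. Flag leaf was the lowest tissue, with 0.237 and 0.339 TPM at 10 DAA and 0.425 and 0.217 TPM at heading, and these groups overlapped.

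Os07g0412100, the other gene of the granule-bound class, lies on chromosome 7 from 12916883 to 12924202 on the reverse strand and peaked in the older flag leaf. It had 234 and 236 TPM in flag leaf at 10 DAA, 5.10 times the next group, 2-week seedling (45.1 and 47.2 TPM). The plumule, embryo, straw, 8-day seedling and endosperm groups followed between 22.8 and 35.1 TPM. Flag leaf at heading had only 4.69 and 3.54 TPM, and radicle dark had 1.65 and 0.973 TPM.

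Os02g0744700, a soluble-class gene on chromosome 2 from 31233292 to 31238210 on the reverse strand, was highest in light-grown plumule and lowest in radicle. It had 73.3 and 76.5 TPM in light-grown plumule, 59.2 and 53.1 TPM in flag leaf at 10 DAA, and 48.4 and 47.0 TPM in 2-week seedling. Endosperm had 4.71 and 6.04 TPM, and radicle dark had 1.55 and 1.47 TPM. All 11 pairs of neighbouring groups were apart by the rule on overlap. That does not make 12 distinct levels. Flag leaf at heading (mean 23.9 TPM) and straw (22.7 TPM) were neighbours, and limma did not call them different (adjusted p = 0.618).

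Os04g0624600, a soluble-class gene on chromosome 4 from 31751600 to 31759420 on the reverse strand, had 42.4 and 47.5 TPM in 2-week seedling, 39.0 and 41.9 TPM in flag leaf at 10 DAA, and 31.0 and 31.7 TPM in light-grown plumule. Flag leaf at heading had 3.02 and 3.20 TPM and straw 2.89 and 2.37 TPM. Its 11 neighbouring pairs were all apart by the rule on overlap, although limma did not call straw different from flag leaf at heading (adjusted p = 0.209).

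Os10g0437600, a soluble-class gene on chromosome 10 from 15673243 to 15681075 on the forward strand, had 45.8 and 49.1 TPM in 2-week seedling, 27.9 and 27.2 TPM in endosperm and 24.5 and 22.4 TPM in light-grown plumule. Its highest mean was 9.85 times its lowest (radicle dark, 4.84 and 4.79 TPM).

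Os01g0720600 and Os05g0533600, soluble-class genes on chromosome 1 from 30032428 to 30041425 (reverse strand) and on chromosome 5 from 26485770 to 26493983 (forward strand), varied least. Os01g0720600 had 22.1 and 23.7 TPM in 2-week seedling, and its highest mean was 6.67 times its lowest, 3.43 TPM in flag leaf at 10 DAA. Os05g0533600 had 35.7 and 35.3 TPM in flag leaf at heading and 25.4 and 29.3 TPM in panicle, and its highest mean was 8.64 times its lowest, 4.10 TPM in radicle light. No library exceeded 23.7 TPM for the first gene or 35.7 TPM for the second.

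The summed level of the 10 genes ranged widely between tissues. It was 2197 and 2144 TPM in endosperm, 384 and 378 TPM in embryo, and 390 and 392 TPM in flag leaf at 10 DAA. It was 94.0 and 93.2 TPM in flag leaf at heading, 39.0 TPM in radicle light and 31.0 and 31.3 TPM in radicle dark. The make-up of the sum changed with the tissue. Os06g0133000 held 53.2% of it in endosperm, Os07g0412100 held 60.2% in flag leaf at 10 DAA, and Os06g0160700 held 49.6% in embryo. Os05g0533600 led in flag leaf at heading (37.9%), Os02g0744700 in light-grown plumule (34.9%) and Os04g0624600 in radicle light (30.1%). In 2-week seedlings 4 genes shared the sum almost evenly, with Os02g0744700 at 20.3%, Os10g0437600 at 20.2%, Os07g0412100 at 19.6% and Os04g0624600 at 19.1%. The granule-bound class together made up 54.3% in endosperm, 60.8% in flag leaf at 10 DAA and 5.57% in flag leaf at heading.

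**Figure D2:**
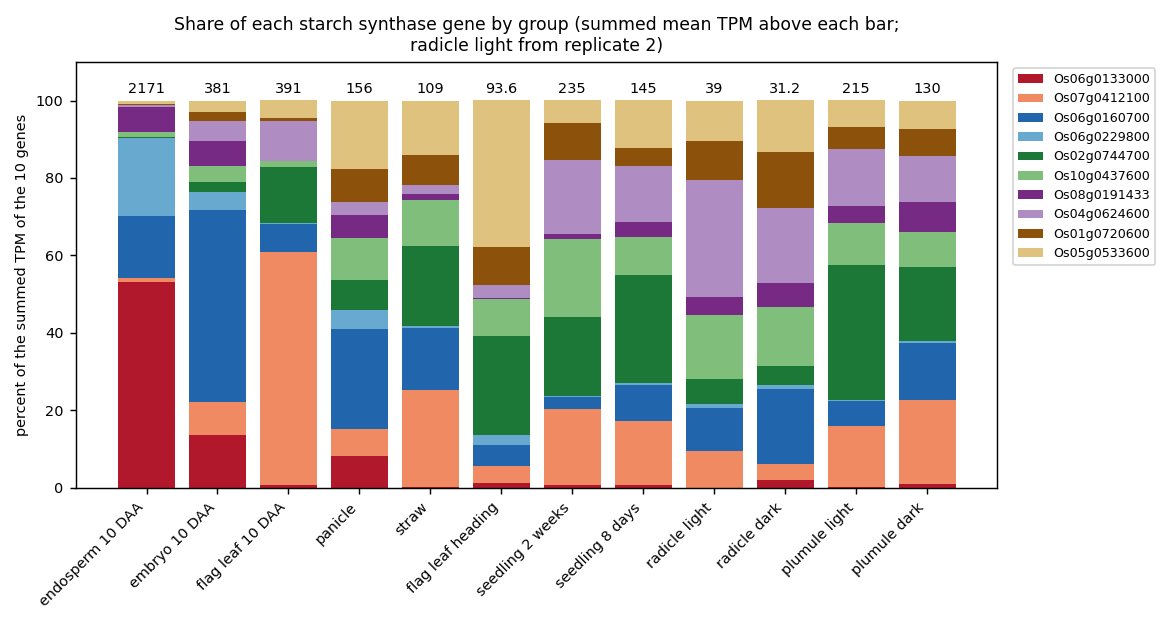
Share of each gene in the summed TPM of the 10 starch synthase genes, in percent, for the 12 groups, with the summed mean TPM above each bar. Os06g0133000 made up 53.2% of 2171 TPM in endosperm and Os07g0412100 60.2% of 391 TPM in flag leaf at 10 DAA.

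The comparisons that follow used limma on log2(TPM + 1) over 29942 genes, two-sided, with Benjamini-Hochberg adjustment over all of them and a threshold of 0.05. A log2 change is on this scale and understates the change of genes near 1 TPM. With radicle light replicate 1 kept in the fit, the log2 changes outside radicle light were the same but fewer members passed. For endosperm against embryo 3 of the 10 calls were kept (Os01g0720600, Os02g0744700 and Os04g0624600), beside 12992 of all 29987 genes called. The limma adjusted p was 0.141 for Os06g0133000 and 0.0598 for Os06g0229800. A share of all genes called is given beside each count of members, and a count near that share is no result about the members.

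Between the seed tissues at 10 DAA, 6 members were higher and 4 lower in endosperm than in embryo, so all 10 passed, beside 52.5% of all genes called (26.2% higher and 26.3% lower). The median change was 0.81 over the members and 0.00 over all genes. Os06g0229800 rose by 4.52 (SE 0.25, limma adjusted p = 3.05e-08) and Os06g0133000 by 4.46 (SE 0.35, limma adjusted p = 5.62e-07). Os08g0191433 rose by 2.48 (SE 0.16). Os06g0160700, Os05g0533600 and Os10g0437600 rose by 0.85, 0.81 and 0.80. The genes that fell in endosperm were Os01g0720600 (-0.91), Os02g0744700 (-0.78, limma adjusted p = 0.0583 when the compared groups alone entered the fit and the endosperm libraries were kept apart), Os04g0624600 (-0.54) and Os07g0412100 (-0.47, SE 0.18, limma adjusted p = 0.0429). The call of Os07g0412100 was lost under 4 processing alternatives, under the fit that kept radicle light replicate 1, and without endosperm replicate 2 or either embryo library, with adjusted p up to 0.356.

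Storage protein transcripts in the embryo libraries moved with this comparison. Embryo held 17.5% of the endosperm level of the 10 storage protein genes when summed, and between 3.63% and 26.6% gene by gene (median 15.0%), and none of the 10 was at 0. For the members highest in endosperm, embryo held 4.45% (Os06g0133000), 4.16% (Os06g0229800), 17.4% (Os08g0191433) and 55.3% (Os06g0160700) of the endosperm level. The part of endosperm transcript in the embryo levels of these 4 genes was not tested.

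Against the flag leaf of the same age, 5 members were higher in endosperm, 3 were lower and 2 were not called, beside 65.5% of all genes called (25.5% higher and 40.0% lower). The median change was 1.11 over the members and -0.18 over all genes. Os06g0133000 rose by 8.38 (SE 0.35, limma adjusted p = 1.07e-09), with 1159 and 1152 TPM in endosperm against 2.41 and 2.53 TPM in flag leaf. Os06g0229800 rose by 8.01 and Os08g0191433 by 6.77, against flag leaf levels under 1 TPM. Os06g0160700 rose by 3.54 and Os10g0437600 by 1.96. Os07g0412100 fell by 3.29 (SE 0.18, limma adjusted p = 9.64e-09), so the granule-bound genes changed in opposite directions. Os02g0744700 fell by 3.16, and Os04g0624600 fell by 1.53. Os05g0533600 averaged 20.4 TPM in endosperm and 17.5 TPM in flag leaf, and Os01g0720600 averaged 4.29 TPM in endosperm and 3.43 TPM in flag leaf. These 2 genes were called higher in endosperm when libraries were rescaled (0.71 and 0.68 with the upper quartile, 0.67 and 0.52 with quantile normalization). The endosperm libraries held 3421 and 3328 TPM of the 7 photosynthesis genes, against 11858 and 11752 TPM in flag leaf at 10 DAA and 121 and 63.5 TPM in embryo. The part of green tissue in the endosperm levels of the leaf members was not tested.

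**Figure D3:**
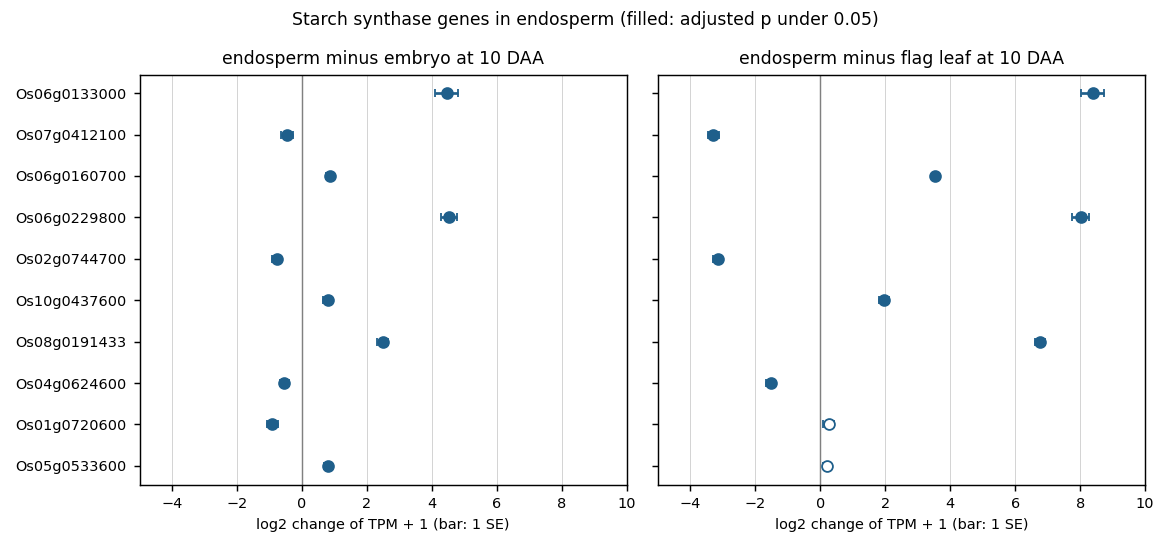
Log2 change of TPM + 1 of the 10 starch synthase genes in endosperm minus embryo (left) and endosperm minus flag leaf at 10 DAA (right), with 1 SE. Filled circles passed an adjusted p of 0.05. In both panels Os06g0133000 and Os06g0229800 lay furthest to the right, and Os07g0412100, Os02g0744700 and Os04g0624600 to the left of 0.

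The flag leaf changed between heading and 10 DAA. Of the members, 4 were higher at 10 DAA, 4 were lower and 2 were not called, beside 36.2% of all genes called (15.8% higher and 20.4% lower), with a median of 0.35 over the members and -0.02 over all genes. Os07g0412100 had 234 and 236 TPM at 10 DAA, against 4.69 and 3.54 TPM at heading, which was 57.2 times as much (5.54, SE 0.14, limma adjusted p = 2.80e-10). Os04g0624600 had 39.0 and 41.9 TPM at 10 DAA, against 3.02 and 3.20 TPM at heading (3.33, SE 0.12). Os06g0160700 rose by 2.25 and Os02g0744700 by 1.20. Os01g0720600 (-1.19), Os05g0533600 (-0.98) and Os06g0229800 (-0.98) fell, the last at low levels of 0.570 and 0.867 TPM at 10 DAA and 2.48 and 2.30 TPM at heading. Os10g0437600 fell by 0.44, a call lost without flag leaf 10 DAA replicate 1 (adjusted p = 0.10) or flag leaf heading replicate 2 (adjusted p = 0.0806), with the compared groups alone in the fit (adjusted p = 0.123) and with radicle light replicate 1 kept (adjusted p = 0.277). Os06g0133000 averaged 2.47 TPM at 10 DAA and 1.10 TPM at heading (limma adjusted p = 0.0682, and 0.0190 to 0.0492 under the 3 alternatives where it passed). The 2 groups differed in age, and whether they were sampled at the same time of day is not given in the sources used here.

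At heading, panicle had more transcript than flag leaf for 8 members and less for 2, beside 64.8% of all genes called (39.9% higher and 24.9% lower), with medians of 1.03 over the members and 0.18 over all genes. Os08g0191433 had 8.93 and 9.83 TPM in panicle, against 0.425 and 0.217 TPM in flag leaf (2.98, SE 0.13, limma adjusted p = 1.67e-09). Os06g0133000 and Os06g0160700 each rose by 2.73, to means of 12.9 and 40.2 TPM in panicle, against 1.10 and 5.21 TPM in flag leaf. Os06g0229800 rose by 1.32, Os07g0412100 by 1.20 and Os10g0437600 by 0.86. Os04g0624600 and Os01g0720600 rose by 0.54 each. Under quantile normalization the value of Os04g0624600 was -0.18 and that of Os01g0720600 0.18, neither past the threshold. Os02g0744700 (-0.92) and Os05g0533600 (-0.37) fell, the second call lost without panicle replicate 1 (adjusted p = 0.101). Panicle held 252 and 272 TPM of storage protein transcript, against 18.9 and 15.2 TPM in flag leaf, and its part in the grain members was not tested.

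Between straw and flag leaf at heading, 4 members were higher in straw, 2 were lower and 4 were not called, beside 58.9% of all genes called (30.9% higher and 28.0% lower), with medians of -0.08 over the members and 0.00 over all genes. Os07g0412100 had 28.6 and 25.9 TPM in straw, against 4.69 and 3.54 TPM in flag leaf (2.47, SE 0.14, limma adjusted p = 3.13e-08). Os06g0160700 rose by 1.57, Os08g0191433 by 1.03 and Os10g0437600 by 0.50. Os05g0533600 fell by 1.17, to 15.0 and 15.5 TPM in straw against 35.7 and 35.3 TPM in flag leaf, and Os06g0229800 fell by 1.15. Os02g0744700 averaged 22.7 TPM in straw, against 23.9 TPM in flag leaf (-0.07, SE 0.11). Os06g0133000 averaged 0.305 TPM in straw against 1.10 TPM in leaf (limma adjusted p = 0.0570) and passed under 5 alternatives, and Os04g0624600 (2.63 TPM in straw, 3.11 TPM in flag leaf) passed under quantile normalization (-0.58). The panicle and straw comparisons share the flag leaf libraries at heading, as does the comparison of flag leaf ages.

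In seedlings, 4 members were higher at 2 weeks than at 8 days, 3 were lower and 3 were not called, beside 56.5% of all genes called (30.1% higher and 26.4% lower), with medians of 0.29 over the members and 0.01 over all genes. Os10g0437600 had 45.8 and 49.1 TPM at 2 weeks, against 12.7 and 15.3 TPM at 8 days (1.70, SE 0.11, limma adjusted p = 1.67e-07). Os01g0720600 had 22.1 and 23.7 TPM at 2 weeks, against 6.12 and 7.60 TPM at 8 days (1.61, SE 0.13). Os04g0624600 rose by 1.07 and Os07g0412100 by 0.90. The genes that fell were Os08g0191433 (-0.81), Os06g0160700 (-0.75) and Os05g0533600 (-0.39), the last call lost without 8-day replicate 1 (adjusted p = 0.0701) or 2-week replicate 2 (adjusted p = 0.0566). Os02g0744700 averaged 47.7 TPM at 2 weeks and 40.8 TPM at 8 days. The 7 photosynthesis genes summed to 20337 and 18389 TPM at 2 weeks, against 29219 and 31220 TPM at 8 days, and the root genes to 19.5 and 21.2 TPM at 2 weeks, against 54.7 and 54.6 TPM at 8 days. Their part in the changes of the members was not tested.

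In germinating seeds kept in the dark, 8 members were lower in radicle than in plumule, none was called higher and 2 were not called, beside 57.9% of all genes called (23.5% higher and 34.4% lower). The median was -1.19 over the members and -0.15 over all genes. At an unadjusted limma p under 0.05, 0 members were higher and 8 lower, beside 18377 of 29942 genes in either direction. Os07g0412100 had 1.65 and 0.973 TPM in radicle, against 29.4 and 27.1 TPM in plumule (-3.68, SE 0.18, limma adjusted p = 8.31e-09). Os02g0744700 had 1.55 and 1.47 TPM in radicle, against 25.1 TPM in both plumule libraries (-3.38, SE 0.13, limma adjusted p = 1.75e-09). Os08g0191433 (-1.91) and Os06g0160700 (-1.54) fell, as did Os04g0624600 (-1.22), Os10g0437600 (-1.16), Os05g0533600 (-1.05) and Os01g0720600 (-0.89). Os06g0133000 (0 and 1.25 TPM in radicle, 1.60 and 1.00 TPM in plumule) and Os06g0229800 (0.352 and 0.334 TPM in radicle, 0.397 and 0.394 TPM in plumule) were at low levels in both organs, with 0 to 24 read equivalents per library for the first gene and 3 to 6.5 for the second. Without radicle dark replicate 2, Os06g0133000 was called lower (-1.20, adjusted p = 4.76e-04).

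In plumule, 4 members were higher in light than in the dark, 1 was lower and 5 were not called, beside 19.7% of all genes called (14.0% higher and 5.74% lower), with medians of 0.39 over the members and 0.13 over all genes. Os02g0744700 had 73.3 and 76.5 TPM in light, against 25.1 TPM in both dark libraries (1.54, SE 0.15, limma adjusted p = 4.46e-05). Os04g0624600 had 31.0 and 31.7 TPM in light, against 16.3 and 14.5 TPM in the dark (0.98, SE 0.17). Os10g0437600 had 24.5 and 22.4 TPM in light, against a mean of 12 TPM in the dark (0.92, SE 0.16). Os05g0533600 rose by 0.55, a call lost with either rescaling (0.32 and 0.36) and without light replicate 1 (adjusted p = 0.0509). Os06g0160700 fell by 0.46. Os07g0412100 averaged 33.4 TPM in light and 28.3 TPM in the dark, and Os01g0720600 12.4 TPM in light and 9.09 TPM in the dark, the second gene passing with pairs kept apart (adjusted p = 0.0186). Each plumule pair entered the test as 1 unit, so the spread came from the other groups. The 7 photosynthesis genes moved with light, at 5191 and 5144 TPM in light and 898 and 857 TPM in the dark, and their relation to the members was not tested.

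In radicle, with the single light library, 3 members were higher in light, 1 was lower and 6 were not called, beside 25.8% of all genes called (14.9% higher and 10.9% lower), with a median of 0.03 over the members and over all genes. Os07g0412100 had 3.70 TPM in light, against 1.65 and 0.973 TPM in the dark (1.04, SE 0.18, limma adjusted p = 0.00147). Os04g0624600 had 11.7 TPM in light, against 6.37 and 5.72 TPM in the dark (0.85, SE 0.14). Os02g0744700 rose by 0.48 and Os06g0160700 fell by 0.37, and both calls were lost without radicle dark replicate 2 (adjusted p = 0.0577 and 0.0812) and with pseudocount 5 (0.176 and 0.0644), that of Os02g0744700 also under upper-quartile scaling (0.0538). Without radicle dark replicate 1, Os06g0133000 was called lower in light (-1.17, adjusted p = 0.00284). When the compared groups alone entered the fit, 0 members and 0 genes were called, and 1 member (Os04g0624600) had an unadjusted limma p under 0.05, as did 7699 genes of 29942.

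The test of the difference between the light effects of radicle and plumule called 1 member, beside 13.0% of all genes (4.65% higher and 8.38% lower in radicle). Os02g0744700 had a light effect of 0.48 in radicle and 1.54 in plumule, a difference of -1.06 (SE 0.20, limma adjusted p = 0.00585). At an unadjusted limma p under 0.05, 1 member was higher and 4 lower, beside 7915 of 29942 genes in either direction. The other 9 members were not called after adjustment, with medians of -0.22 over the members and -0.08 over all genes. Os07g0412100, with effects of 1.04 in radicle and 0.23 in plumule, differed by 0.81 (limma adjusted p = 0.0751, and 0.0109 with pairs kept apart, where Os10g0437600 and Os05g0533600 also passed). It also passed under both scalings (adjusted p = 0.0255 and 0.0433) and without radicle dark replicate 1 (adjusted p = 0.0181).

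**Figure D4:**
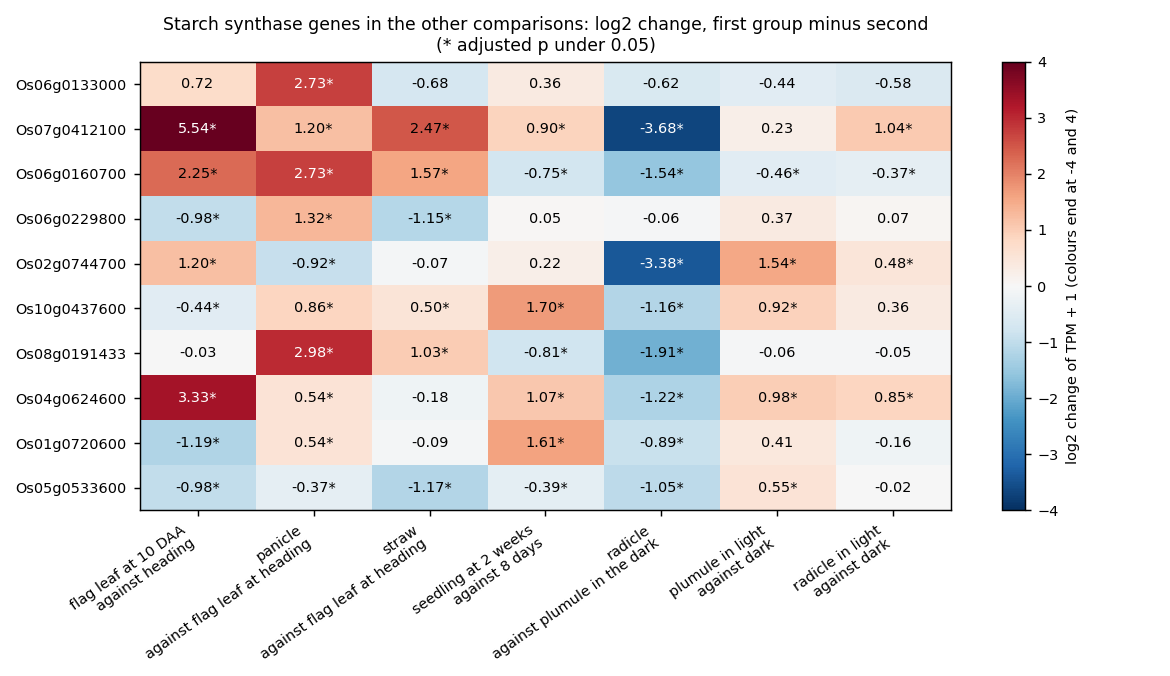
Log2 change of TPM + 1, first group minus second, of the 10 starch synthase genes in 7 comparisons, where an asterisk marks an adjusted p under 0.05. The largest values were 5.54 for Os07g0412100 in flag leaf at 10 DAA against heading and -3.68 for the same gene in radicle against plumule.

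Over the 12 group means of log2(TPM + 1), the 4 grain members had the most similar profiles. They were grouped by the order of these same group means, so their similarity is no independent observation. Pearson's r was 0.98 between Os06g0133000 and Os06g0229800, 0.92 between Os06g0133000 and Os06g0160700 and 0.84 between Os06g0133000 and Os08g0191433. The next pairs were Os07g0412100 with Os02g0744700 (0.72) and Os10g0437600 with Os01g0720600 (0.71), and the lowest was Os06g0229800 with Os02g0744700 (-0.31). These are descriptions over 12 groups that share libraries and depth between genes. In all, 13347 genes reached 32 TPM in some group, members included, and the closest matches were sought among those that are not members. The closest to Os06g0133000 were Os03g0284700 and Os10g0501900 (r = 0.982 each), and the closest to Os06g0229800 was Os01g0567200 (0.986). Os08g0191433 was closest to Os05g0373500 (0.981), Os06g0160700 to Os11g0151800 (0.939) and Os02g0744700 to Os08g0440900 (0.952). Os10g0437600 was closest to Os10g0444400 (0.927), Os05g0533600 to Os04g0645100 (0.925), Os04g0624600 to Os08g0157600 (0.904) and Os07g0412100 to Os02g0816600 (0.894).

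Other enzymes of starch metabolism were followed as 5 lists of 22 genes in all, drawn up from general knowledge of rice loci. ADP-glucose pyrophosphorylase makes the substrate of the starch synthases, branching enzymes add branch points, debranching enzymes trim them, and plastid transporters bring in ADP-glucose or glucose 6-phosphate. In endosperm against embryo 12 of the 22 were higher and 8 lower (median 1.02), beside 26.2% of all genes called higher and 26.3% lower (median 0.00). In endosperm against flag leaf 15 were higher and 7 lower (median 2.32), beside 25.5% and 40.0% of all genes (median -0.18). By list, 6 of 6 pyrophosphorylase subunits, 2 of 3 branching enzymes, 3 of 4 debranching enzymes and 2 of 4 transporters were higher in endosperm than in flag leaf, as were 2 of 5 phosphorylases, disproportionating enzymes and glucan water dikinase. The largest rise was that of Os02g0202400, on the transporter list, with 2137 and 2189 TPM in endosperm, against 0.267 and 0 TPM in flag leaf and 101 and 80.8 TPM in embryo. Os04g0164900, on the debranching list, had 1323 and 1303 TPM in endosperm, against 1.90 and 2.42 TPM in flag leaf. Os08g0520900, of the same list, had 743 and 719 TPM in endosperm, against 51.4 and 42.6 TPM in embryo. The largest falls in endosperm were Os07g0243200 (pyrophosphorylase list, 1.30 and 0.672 TPM, against 53.5 and 53.4 TPM in embryo), Os09g0469400 (debranching list, 9.41 and 8.45 TPM, against 52.6 and 54.2 TPM in embryo), Os07g0662900 (phosphorylase list, 20.7 and 20.6 TPM, against 128 and 124 TPM in flag leaf) and Os07g0523600 (transporter list, 17.1 and 14.4 TPM, against 65.8 and 66.0 TPM in flag leaf).

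Outside the grain the counts of the 22 genes are given beside the shares of all genes called higher and lower. In flag leaf at 10 DAA against heading 13 were higher and 3 lower (all genes 15.8% and 20.4%). Against flag leaf at heading 15 were higher and 3 lower in panicle (39.9% and 24.9%), and 11 higher and 8 lower in straw (30.9% and 28.0%). In 2-week against 8-day seedlings 3 were higher and 15 lower (30.1% and 26.4%), with a median of -0.59. All 5 genes of the phosphorylase list and all 4 debranching genes were lower at 2 weeks. In radicle against plumule in the dark 1 was higher and 19 lower (23.5% and 34.4%), with a median of -1.43. In light against dark 9 were higher and 2 lower in plumule (14.0% and 5.74%), and 11 higher and 1 lower in radicle (14.9% and 10.9%).

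The Ψ fraction of each site, the calibrated share of transcripts modified there, was a single value for each tissue. The authors had combined the replicates, so the fractions carry no error, and the depth behind them is unknown. Each of the 9 sites had passed the filter of the authors in exactly 1 of the 11 tissues with a flag, as had 58.8% of all sites. Of these, 6 had passed in endosperm, the tissue where 12.4% of all sites passed, and all 6 lay in Os06g0133000 and Os06g0229800, which ranked 91 and 255 of 29558 genes above 0 there by mean TPM. The relation to their level was not tested.

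In Os06g0133000 the 5 endosperm sites lay in 2 parts of the gene, at bases 841 and 898 and at bases 4004, 4211 and 4742 of its 5032-base span. Spans run along the genome, and this one is longer than the deposited gene length of 2672 bases. Bases of a span, here and below, are therefore not positions along the mRNA, and whether a site lay in an exon was not checked. The site tcaTctg had the highest fraction, 32.1% in endosperm, with 0 in embryo, panicle and dark-grown plumule and no value elsewhere. Dark-grown plumule had only 1.60 and 1.00 TPM of the gene. The sites at bases 4004, 4211 and 4742 had 6.58%, 6.30% and 5.85% in endosperm. All 3 were below the 25th percentile (11.1%) of the 1128 sites that passed in endosperm, whose median was 21.7%. The first of them, cggTggg, had 10.6% in panicle and 3.25% in embryo. The next, aggTggc, had 7.90% in panicle, 7.08% in flag leaf at 10 DAA and 6.08% in embryo. The last, agaTcgc, had 30.0% in 2-week seedling, where the gene was at 1.20 and 1.69 TPM and the site had not passed, and 1.22% in embryo. At base 841, gttTtgt was marked as passed in endosperm with a fraction of 0, as were 32 sites there, and had no value above 0 in any tissue. In the series 20 genes spanned 5 or more sites passed in endosperm, and the largest number in 1 gene was 10. Of the 91 genes at or above the level of Os06g0133000 in endosperm, itself included, 75 spanned at least 1 such site.

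Os06g0229800 had 1 site, ggaTgta at base 2190 of its 4905-base span. Its fraction was 3.44% in endosperm, 3.04% in embryo and 0 in the 8 other tissues with a value. Among those 8 the gene averaged 7.51 TPM in panicle, 2.39 TPM in flag leaf at heading and under 1 TPM in the others. With so little transcript, a 0 cannot show that the site was less modified there. The endosperm value is the lowest fraction above 0 with which a member site had passed.

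The other 3 sites had values above 0 in 11 or 12 tissues and lay in the last part of their gene. The site agcTgta of Os06g0160700, at base 7475 of 7513, had passed in embryo with 19.2%. Its fraction was 47.7% in radicle dark, 30.7% in radicle light and 34.6% in 8-day seedling, and 10.5% in flag leaf at 10 DAA, its lowest. The radicle light value pools all replicates of that tissue, and whether it is touched by the library that stood apart in expression was not tested. The site ggcTctg of Os07g0412100, at base 6445 of 7320, had passed in flag leaf at 10 DAA with 19.7%, the tissue where the gene was highest. It had 29.0% in endosperm, 22.9% in embryo, 25.1% in flag leaf at heading and 0 in radicle dark, where the gene was at 1.65 and 0.973 TPM. The site ggtTcca of Os04g0624600, at base 7180 of 7821, had passed in embryo with 26.6%. It had 35.3% in straw, 24.9% in panicle and 8.66% in endosperm. It had 0 in flag leaf at heading, where the gene was at 3.02 and 3.20 TPM.

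**Figure D5:**
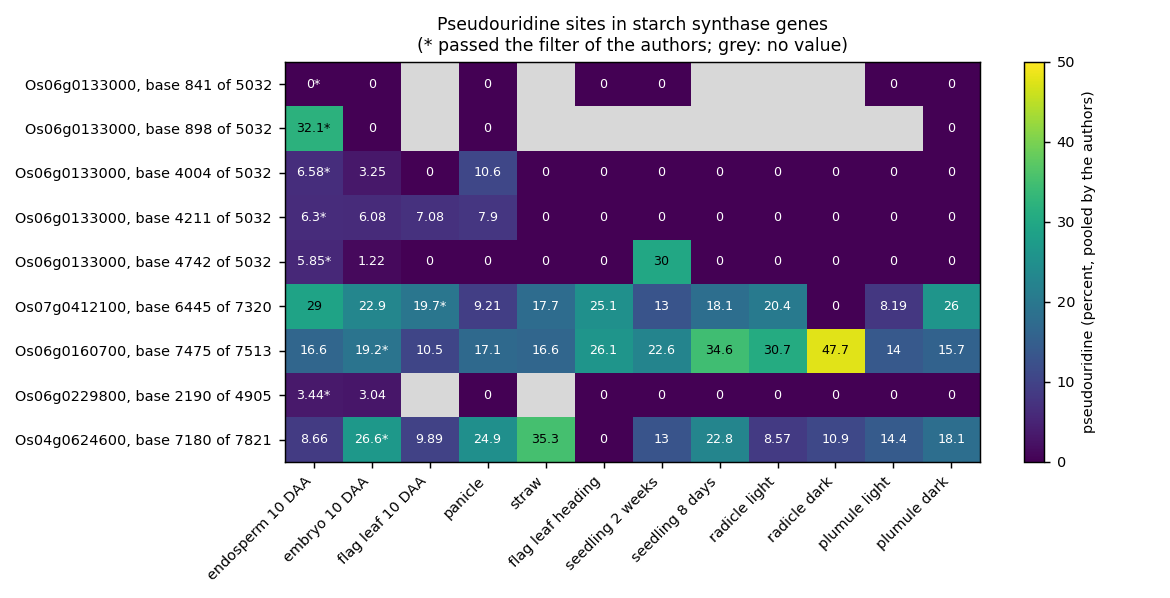
Ψ fraction in percent of the 9 sites in starch synthase genes (rows, by base from the 5′ end of the gene span) in 12 tissues (columns); an asterisk marks the tissue where the site passed the filter and grey marks no value. Values above 0 lie in 11 or 12 tissues for the sites of Os07g0412100, Os06g0160700 and Os04g0624600, and in at most 4 tissues for the other 6 sites.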

How the data were processed

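RNA was poly(A)-selected, and bisulfite-treated and input libraries were made from each tissue. The authors gave expression as TPM in a deposited table whose aligner and counting were not given in the sources used here, with columns that name neither input nor treated libraries. The deposited Ψ fraction (0 to 1, printed as percent) was called by the authors on the assembly IRGSP-1.0, by pooling gapped and ungapped reads over replicates and calibrating the gap ratio. The deposited gene lengths and flags of the authors' filter were used as given; dark-grown plumule had no flag column.

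Read equivalents were taken from the smallest step of TPM times length. Between 49.3% and 70.1% of values above 0 were whole within 0.02 reads, so no count test was run, and genes with near-identical copies are uncertain. A 0 allows up to 3 reads; such limits cover counting error only. The 29942 genes that reached 1 TPM in at least 2 libraries entered limma 3.58.1 (R 4.3.3, pseudocount 1, variance trend) with all 12 groups, 20 units and 8 residual degrees of freedom. Radicle light replicate 1 was left out, and 3 pairs with no detected difference beyond sampling noise (chi-square p above 0.05) entered as their mean, so endosperm and both plumule groups are 1 unit each. Sites were assigned to genes by position and strand (Python 3.11.15, pandas 2.3.3, NumPy 2.4.6, SciPy 1.17.1, matplotlib 3.10.9). All members, all their sites, the 2 starch genes with the largest rise and fall in each endosperm comparison, and the closest profiles were named by rule. The members, lists and rules were chosen with earlier results of these data known. Alternatives changed the libraries, block, samples, pseudocount (0.1 or 5), filter, scaling and trend.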

Additional observations from a re-analysis of the deposited data

Results flagged for a closer look

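The light effect on Os02g0744700 was called different between radicle and plumule. In radicle it rested on 1 light library at 2.51 TPM, against 1.55 and 1.47 TPM in the dark. Light was 1.66 times dark in radicle and 2.99 times dark in plumule. The log2(TPM + 1) scale understates changes at levels as low as those of radicle. The difference, radicle minus plumule, was -1.06 on the log2 scale (limma adjusted p = 0.00585), and its light effect was positive in both organs. With radicle light replicate 1 in the fit the difference was -0.78 and no longer passed (adjusted p = 0.146).

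Radicle light replicate 1, used in no comparison, stood above both radicle dark libraries beyond counting error for 8 members. For these, the lower 95% Poisson limit of its TPM exceeded the upper limits of both, a description of 1 library with no test. How many of all genes clear the same limits was not counted, so the count of 8 is no result about the members. Os04g0624600 was also higher (9.10 TPM, against 6.37 and 5.72 TPM in radicle dark) but not beyond those limits. The library was set apart for its storage protein transcript, which is abundant in endosperm, so the levels of the grain members are no independent observation. Os06g0133000 was at 513 TPM there, against 0 TPM in replicate 2, and Os06g0229800 was at 186 TPM, against 0.414 TPM in replicate 2. Os06g0160700 was at 138 TPM and Os08g0191433 at 56.7 TPM, against 4.38 and 1.82 TPM in replicate 2. Os10g0437600 was at 15.7 TPM, Os05g0533600 at 11 TPM, Os07g0412100 at 10.5 TPM and Os02g0744700 at 4.14 TPM. As a percent of the endosperm mean, the 4 grain members stood at 44.4% (Os06g0133000), 42.2% (Os06g0229800), 40.7% (Os08g0191433) and 40.2% (Os06g0160700), and the 10 storage protein genes at 47.2% to 77.1% (median 69.3%). The 5 root genes summed to 2384 TPM in replicate 1 and 5399 TPM in replicate 2.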

How the results depend on the processing

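Of 1490 values of single members under the alternatives, 1404 kept their side of the threshold, and their direction where they were called. The others were 53 that lost a call, 31 that gained one and 2 that reversed. A change of sign between uncalled values was counted as kept. The count of members highest in endosperm (4) and the count of Ψ sites (9) kept within 1.5 times under all their alternatives.

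Keeping radicle light replicate 1 in the fit lost the most. Members called were then 3 of 10 in endosperm against embryo (12992), 5 in flag leaf at 10 DAA against heading (8073) and 2 in straw against flag leaf (15454). In seedlings 4 were called (14404), in plumule light against dark 2 (2655) and in the difference of light effects 0 (1551). The numbers in brackets are the genes called among all 29987 tested in that fit. The light change of Os06g0160700 in radicle became 1.97 (limma adjusted p = 0.173). Radicle light against dark called 2 members with pseudocount 5 and 0 with only its own groups in the fit, where limma called 0 genes of all tested. Under quantile normalization Os04g0624600 in panicle against flag leaf was -0.18. The difference of light effects called 2 members with pseudocount 5 (beside 5206 of all 29942 genes) and under both scalings (3310 by quantile, 3962 by upper quartile). It also called 2 with only its groups in the fit and the plumule pairs kept apart (5624). With pairs kept apart in the fit of all groups it called 4 (6923). With pseudocount 5, radicle light against dark called 7967 of all genes. Leaving out 1 library gave 2 to 5 calls in radicle light against dark (2 without radicle dark replicate 2) and 1 to 2 in the difference of light effects (2 without radicle dark replicate 1).

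Columns of one number did not deviate together over 55 pairs of groups (r between -0.05 and 0.03). Replicates in these groups differed little beyond counting noise, so whether the numbers pair libraries cannot be told from these values. The replicate block was fitted with pairs kept apart. With it no member lost a call, 5 gained one and 4 were called in the difference of light effects. With pairs kept apart and no block, 7 gained a call and 4 were called in that difference. Of all 29942 genes, the difference called 6626 with the block and 6923 without it.

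Rescaling by the upper quartile moved the median of all genes in endosperm against flag leaf to 0.05 and the share of calls that were higher to 53.8%, against 38.9%. That share was 45.7% for panicle against flag leaf under quantile normalization, against 61.6%, with a median of -0.08. It was 47.3% for plumule light (upper quartile) or 53.5% (quantile), against 70.9%, 40.2% for radicle light (upper quartile), against 57.8%, and 46.3% for the difference of light effects (quantile), against 35.7%. Depth limits genes under 1 TPM, and 1 light library limits every radicle light value.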
